A study of Mus musculus with 4 samples.

Results

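The genes described here encode the lysophospholipid acyltransferases of the LPCAT and MBOAT groups, Lpcat1, Lpcat2, Lpcat3, Lpcat4, Mboat1, Mboat2, Mboat7 and Lpgat1. They were chosen by gene symbol, and all 8 were found among the 18560 genes of the deposited table. These enzymes complete the Lands cycle, in which a phospholipase removes a fatty acid from a membrane phospholipid and an acyltransferase attaches another one to the remaining lysophospholipid. The exchange sets which fatty acids sit in phosphatidylcholine, phosphatidylethanolamine and phosphatidylinositol, and with them membrane fluidity and the store of arachidonate for lipid mediators. The members belong to separate protein families: Lpcat1, Lpcat2, Lpcat4 and Lpgat1 carry the acyltransferase motif of the AGPAT family, whereas Lpcat3, Mboat1, Mboat2 and Mboat7 are membrane-bound O-acyltransferases (MBOAT).

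RNA-seq had been performed on 4 bulk libraries of C57BL/6 mouse spleen CD4+ T cells, 2 with the genotype label Setd2-CD4 cre (replicates 9 and 12, called Setd2 knockout here) and 2 labelled wild type (replicates 1 and 6). Setd2 encodes the enzyme that trimethylates lysine 36 of histone H3, and a Cre under Cd4 control acts from the thymic stage at which T cells carry both CD4 and CD8, so it also reaches the CD8 lineage. All 4 libraries came from naive cells activated through CD3 and CD28 into Th0 cells, which are not steered toward any effector type. The number 48 stands in the titles, whereas the treatment labels give 3 days of activation and the design text gives 2 days. Ages, a Cre-only control and the animal behind each replicate are not stated in the labels, and the p-values below cover no more than the spread between these libraries, which may be technical.

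Each library held 17284613 to 20418766 counts. Setd2 itself stood at 127.2 and 112.9 CPM (counts scaled to library size, with TMM factors) in the knockout libraries, against 157.2 and 174.5 CPM in wild type (log2 -0.47, SE 0.21, edgeR adjusted p = 0.421), and a gene-level count does not resolve the deleted part. Of 8 T cell markers 6 were in the table and all 6 reached 1 CPM. They summed to 1703 and 1618 CPM in the knockout libraries, against 2059 and 2371 CPM in wild type, so both knockout libraries were lower, and the part of this in the results below was not tested. Cd4 stood at 403.6 and 444.5 CPM in the knockout libraries, against 464.1 and 575.0 CPM in wild type. Markers of other cells were present too: the 6 B cell markers summed to 205.7 and 354.8 CPM in the knockout libraries, against 279.8 and 193.3 CPM in wild type, and the 2 CD8 markers to 432.0 and 323.1 CPM in the knockout, against 260.0 and 330.4 CPM in wild type. The first principal component held 56.0% of the variance. Along it the libraries followed each other as wild type 6 (-54.91), wild type 1 (-7.87), knockout 9 (6.57) and knockout 12 (56.22). The replicates of each genotype thus lay far apart on it. Wild type 1 and knockout 9 were nearer to each other than to the other library of their own genotype. In bulk RNA, fewer cells of a type and less RNA per cell cannot be told apart.

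Lpcat3, Mboat7 and Lpcat4 were the 3 members of highest level in both genotypes, and Mboat2 and Lpcat2 the lowest. Levels of different genes are compared in FPKM, the deposited value per unit of gene length. In the knockout libraries the order by mean FPKM was Lpcat3 (43.0), Mboat7 (35.5), Lpcat4 (32.5), Lpcat1 (11.9), Lpgat1 (7.22), Mboat1 (6.09), Mboat2 (0.87) and Lpcat2 (0.175). In the wild type libraries it was Mboat7 (43.8), Lpcat3 (38.5), Lpcat4 (20.1), Lpcat1 (15.3), Lpgat1 (9.62), Mboat1 (6.66), Mboat2 (0.62) and Lpcat2 (0.205). Neighbours in that order whose ranges over the 2 libraries overlapped were Mboat7 and Lpcat4 as well as Lpgat1 and Mboat1 in the knockout, and Mboat7 and Lpcat3 in wild type. In the knockout libraries Mboat7 spanned 33.5 to 37.5 FPKM and Lpcat4 spanned 30.7 to 34.3 FPKM, both higher in replicate 12, and within each of these libraries Mboat7 was above Lpcat4. In the wild type libraries Mboat7 spanned 43.5 to 44.1 FPKM and Lpcat4 spanned 17.9 to 22.3 FPKM. Averaged over the 4 libraries, Lpcat3 and Mboat7 were above 88.8% and 88.4% of all genes in the table, Lpcat4 above 82.6%, and Mboat2 and Lpcat2 above 40.3% and 31.4%.

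**Figure D1:**
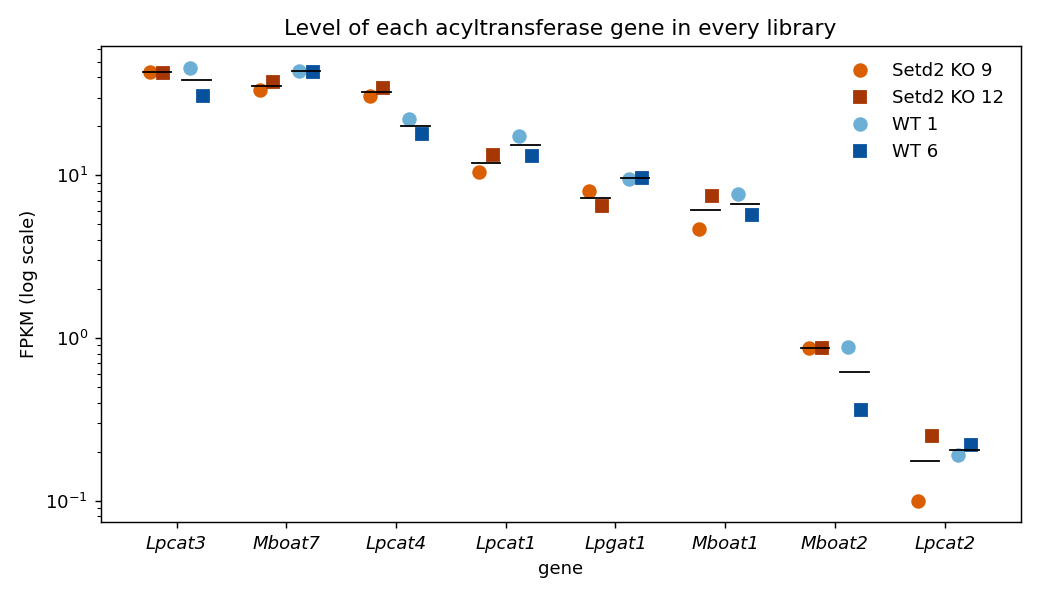
FPKM (vertical, log scale) of the 8 genes in each library, knockout left of wild type for each gene, with horizontal lines at group means of 2 libraries. Lpcat4 lies at 30.7 and 34.3 FPKM in the knockout libraries, above 22.3 and 17.9 FPKM in the wild type libraries, while most other genes overlap between genotypes or lie slightly lower in the knockout.

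The upstream sequences of Lpcat4, the gene named in the study's title, and Lpcat2, the member of lowest level, are shown so that the promoter of each can be read beside its level. Both are the 250 bases before the RefSeq start on GRCm38.p6, plus strand, chr2:112239591-112239840 for Lpcat4 and chr8:92855083-92855332 for Lpcat2, with capitals marking each GC box (GGGCGG on either strand) and CCAAT box (CCAAT on either strand). The Lpcat2 window precedes the transcript start of the promoter table, which lies downstream of the outermost RefSeq start of the gene.
Lpcat4: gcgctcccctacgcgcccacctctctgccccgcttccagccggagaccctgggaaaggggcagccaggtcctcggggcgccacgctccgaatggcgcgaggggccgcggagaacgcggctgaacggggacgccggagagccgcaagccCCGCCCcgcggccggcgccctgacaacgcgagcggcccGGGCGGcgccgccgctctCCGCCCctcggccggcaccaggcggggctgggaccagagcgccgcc
Lpcat2: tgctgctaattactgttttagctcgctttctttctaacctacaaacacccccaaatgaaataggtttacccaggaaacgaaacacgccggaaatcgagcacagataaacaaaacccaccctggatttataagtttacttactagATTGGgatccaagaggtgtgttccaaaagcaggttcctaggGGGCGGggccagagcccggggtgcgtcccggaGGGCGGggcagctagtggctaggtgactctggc
The Lpcat4 window held 79.6% G and C, 38 CpG sites, 3 GC boxes and 0 CCAAT boxes, and the Lpcat2 window held 51.2%, 10, 2 and 1. Over all 32851 RefSeq windows of this length the median was 52.4% G and C with 6 CpG sites, 32.7% held a GC box and 33.9% a CCAAT box. The other members had windows of 58.0% (Mboat7) to 80.4% (the downstream start of Lpgat1) G and C, and 9 of the 9 windows of the 8 genes held a GC box. The window of Mboat2, the second lowest in level, held 77.6% G and C with 6 GC boxes, and that of Mboat7, among the highest, held 58.0% with 1. As for Lpcat2, the windows of Lpcat3, Mboat1, Mboat2, Mboat7 and Lpgat1 precede starts downstream of the outermost RefSeq start. They therefore lie partly, and for Lpgat1 wholly, within the annotated gene.

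Among the AGPAT-type members, Lpcat4 was higher in the knockout libraries, Lpgat1 was slightly lower, and Lpcat1 and Lpcat2 overlapped between genotypes. None of them passed the test over all genes. Lpcat4 (gene 99010, GRCm38.p6 chromosome 2, 112239841 to 112247111) re-acylates lysophosphatidylethanolamine and lysophosphatidylcholine. It also carries the name LPEAT2 in RefSeq, where the synonym LPCAT4 is listed for a different gene, Mboat2. Lpcat4 had 58.5 and 68.8 CPM in the knockout libraries, against 42.3 and 32.3 CPM in the wild type libraries. Each knockout library exceeded each wild type library, which was also true of 25.4% of the 12816 genes tested.

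The Lpcat4 difference amounted to 1.71-fold on the CPM scale, with a 95% interval of 1.17 to 2.48 (log2 0.77, SE 0.23). Its edgeR p of 0.0114 did not pass adjustment over all genes (adjusted p = 0.386), and DESeq2 gave an adjusted p of 0.162. A log2 fold change at least as large was found for 7.26% of genes, and a p at most as small for 2.87%. Fold changes in these libraries depended on gene length, and the 1201 genes within 1.1 times the effective length of Lpcat4 (1901 bases) had a median log2 of 0.13, with 90.4% of them below Lpcat4. With the length trend removed the log2 fold change of Lpcat4 was 0.63. The 4 libraries ranked for Lpcat4 exactly as on the principal component above, as they did for 15.2% of genes, and the part of that component in the difference was not tested. Without wild type replicate 6 the log2 fold change was 0.59 (unadjusted p = 0.11, edgeR), and without knockout replicate 12 it was 0.65 (unadjusted p = 0.0504, edgeR).

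Lpcat1 and Lpcat2 are the other LPCAT enzymes of the AGPAT family. Lpcat1 (gene 210992, chromosome 13, 73467231 to 73516420) makes saturated phosphatidylcholine, best known from lung surfactant. It had 28.0 and 41.9 CPM in the knockout libraries, against 46.9 and 35.9 CPM in the wild type libraries. The lowest value was that of knockout replicate 9, and the groups overlapped. Its log2 fold change was -0.24 (SE 0.27, adjusted p = 0.688, edgeR), with an interval of 0.55-fold to 1.30-fold, and without knockout replicate 9 it was 0.01.

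Lpcat2 (gene 270084, chromosome 8, 92855313 to 92919279), which makes platelet-activating factor in macrophages, was close to the limit of detection. It had 3 and 11 counts in the knockout libraries, against 7 and 8 counts in the wild type libraries, and did not pass the filter on low counts. Macrophage and monocyte markers summed to 11.1 and 13.3 CPM in the knockout libraries, against 13.0 and 22.4 CPM in wild type, and 3 of those 7 markers reached 1 CPM. No fold change is given for Lpcat2, since differences were not detectable at this depth.

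Lpgat1 (gene 226856, chromosome 1, 191717554 to 191784255), named for the acylation of lysophosphatidylglycerol, also acts on lysophosphatidylethanolamine. It had 49.2 and 44.7 CPM in the knockout libraries, against 58.2 and 50.1 CPM in the wild type libraries. Both knockout libraries were lower, by a margin that was small between knockout replicate 9 and wild type replicate 6. The log2 fold change was -0.21 (SE 0.21, adjusted p = 0.666, edgeR), with an interval of 0.62-fold to 1.22-fold. Lpgat1 had the longest effective length of the members, 6116 bases, and the 698 genes of like length had a median log2 of -0.30. With the length trend removed its sign turned, to 0.09.

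Among the MBOAT members, Mboat7 was lower in both knockout libraries and the other 3 overlapped between genotypes. Mboat7 (gene 77582, chromosome 7, 3677789 to 3693189) places arachidonate into phosphatidylinositol. It had 95.1 and 110.5 CPM in the knockout libraries, against 123.7 and 116.4 CPM in the wild type libraries. Such a separation downward was found for 24.3% of all genes tested. The log2 fold change was -0.22 (SE 0.21, adjusted p = 0.637, edgeR), with an interval of 0.61-fold to 1.20-fold. Exons of Mboat7 overlap those of Tsen34 on the other strand, which had a log2 fold change of 0.27 (SE 0.23).

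Lpcat3 (gene 14792, chromosome 6, 124663094 to 124704716) adds arachidonate and linoleate to phosphatidylcholine and phosphatidylethanolamine, and in mouse liver it is a target of the sterol-sensing LXR receptors. It had 80.5 and 91.3 CPM in the knockout libraries, against 82.5 and 50.2 CPM in the wild type libraries. Wild type replicate 6 stood alone at the low end, and wild type replicate 1 lay between the knockout libraries. The log2 fold change of 0.37 (SE 0.27, adjusted p = 0.542, edgeR) was 0.06 when wild type replicate 6 was left out and 0.79 when replicate 1 was. Exons of Lpcat3 overlap those of Emg1 on the other strand, and the labels do not state whether counting used strand. Emg1 had 125.2 and 159.7 CPM in the knockout libraries, against 121.2 and 78.8 CPM in wild type, so its lowest library was also wild type replicate 6.

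Mboat1 (gene 218121, chromosome 13, 30136451 to 30246694), which acylates lysophosphatidylethanolamine and lysophosphatidylserine, had 13.5 and 22.9 CPM in the knockout libraries, against 22.0 and 15.6 CPM in the wild type libraries. One library of each genotype was high and one low, with a log2 fold change of -0.05 (SE 0.32, adjusted p = 0.959, edgeR) that turned to 0.27 without knockout replicate 9 and to 0.24 without wild type replicate 1. The summed B cell markers given above were likewise higher in knockout replicate 12 and wild type replicate 1 than in the other libraries of their genotype. All 6 of these markers reached 1 CPM and none was at 0. The same order within each genotype held in CPM for Lpcat1, Lpcat3, Lpcat4 and Mboat7, but not for Mboat2 and Lpgat1. It was also the order within each genotype on the first principal component and in total counts, so it was not particular to the B cell markers. The share of all genes with this order was not counted, and the part of the B cell markers in the values of any member was not tested.

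Mboat2 (gene 67216, chromosome 12, 24831435 to 24964400), which acylates lysophosphatidylcholine and lysophosphatidylethanolamine with oleate, had 50 and 55 counts in the knockout libraries, against 59 and 21 counts in the wild type libraries. Only wild type replicate 6 stood apart, and the log2 fold change of 0.50 (SE 0.61, adjusted p = 0.723, edgeR) turned to -0.07 without it. Its interval of 0.53-fold to 3.78-fold was the widest among the members tested.

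Of the 7 members tested, 0 passed at an adjusted p under 0.05 in edgeR or DESeq2, where edgeR called 0.0078% of genes higher and 0.0% lower and DESeq2 called 0.687% and 0.757%. At an unadjusted p, 1 member (Lpcat4) was higher and 0 lower in both tools, against 6.23% and 5.73% of all genes in edgeR and 6.59% and 6.48% in DESeq2. The median log2 fold change of the 7 was -0.05, against -0.002 over all genes tested, and with a library left out it lay between -0.27 (wild type replicate 6) and 0.27 (knockout replicate 9).

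**Figure D2:**
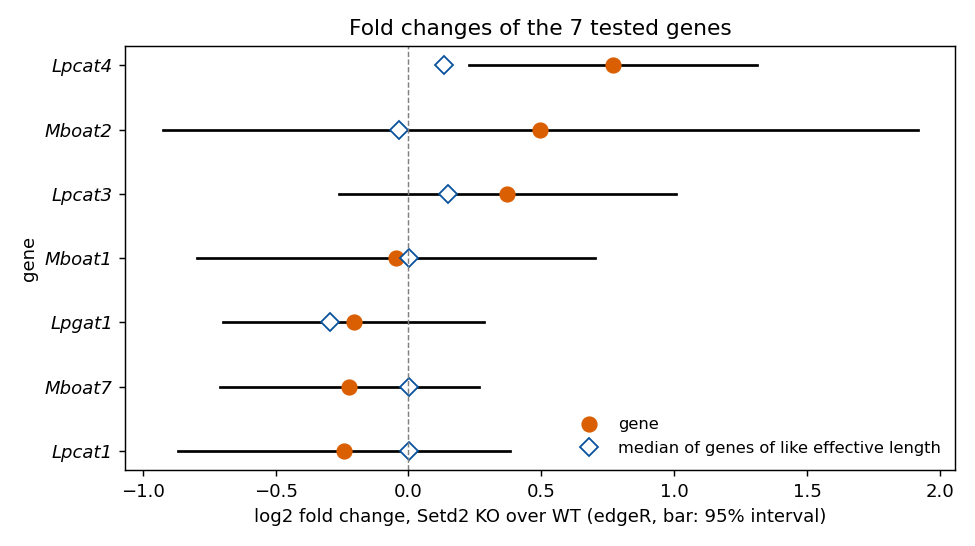
Log2 fold change of the 7 tested genes, knockout over wild type (filled circles, with 95% intervals from edgeR), and the median of genes of like effective length (open diamonds). The interval of Lpcat4, 0.23 to 1.31, is the only one that leaves out 0, and it also leaves out the median of 0.13 for its length.

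Ratios between members within a library do not depend on scaling between libraries, and Lpcat4 was higher in both knockout libraries relative to 6 of the 7 other members. The same held relative to 76.5% of the 12663 other genes tested and listed above 0 in every library, so this count is near the background. The ratio of Lpcat4 to Mboat7 in FPKM was 0.915 and 0.914 in the knockout libraries, against 0.505 and 0.413 in the wild type libraries. The ratio of Lpcat4 to Lpcat1 was 2.93 and 2.57 in the knockout libraries, against 1.27 and 1.36 in the wild type libraries. The genotypes did not overlap in either ratio. The knockout replicates nearly coincided in the ratio to Mboat7, whereas the wild type replicates lay further apart. The log2 difference, knockout minus wild type, was 1.003 (SE 0.15) for Mboat7 and 1.06 (SE 0.11) for Lpcat1, the smallest SE among the 7 ratios.

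Against Lpcat3, which has nearly the same effective length (1825 bases), the Lpcat4 ratio was 0.710 and 0.802 in the knockout libraries and 0.484 and 0.580 in the wild type libraries. Its log2 difference was 0.51 (SE 0.16), smaller than that against Mboat7 or Lpcat1. The ratio was also higher in both knockout libraries against Lpgat1 (log2 1.12, SE 0.29) and Mboat1 (0.85, SE 0.26). The length trend remains in such a ratio. Genes of like length had a median log2 fold change of -0.30 for Lpgat1 and 0.13 for Lpcat4. On counts the log2 difference against Lpgat1 was 0.98. Against Mboat2 the ratio overlapped, at 35.2 and 39.4 in the knockout libraries and 25.3 and 49.8 in the wild type libraries. The 6 ratios without overlap include that to Lpcat2 with its 3 to 11 counts, and all 7 share the Lpcat4 values. An exact permutation test, two-sided, gave p = 0.33 for each of the 6 (0.39 adjusted over the 7), the smallest p that 2 against 2 libraries allow, and p = 1.0 for Mboat2.

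**Figure D3:**
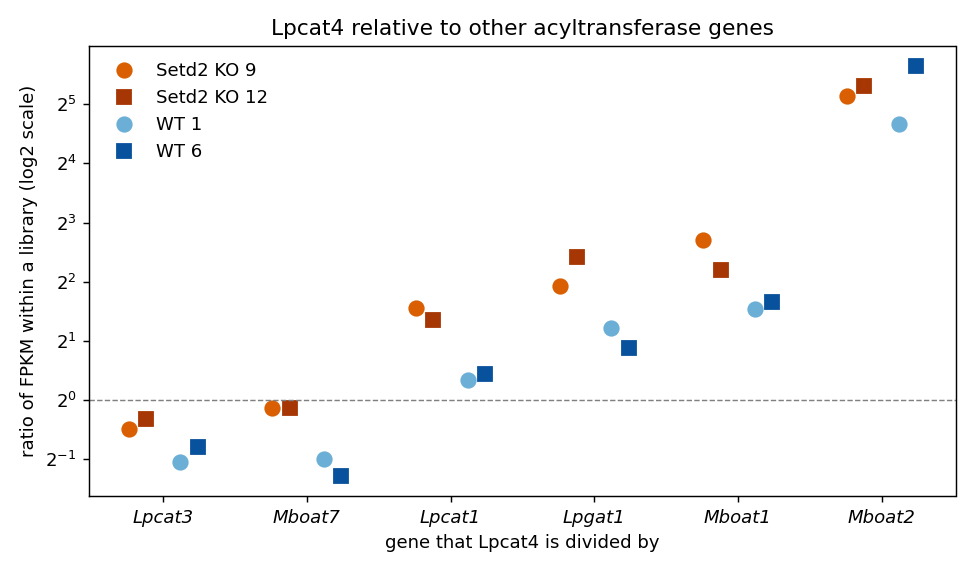
FPKM of Lpcat4 divided by that of another member within each library (vertical, log2 scale), knockout left of wild type for each gene. For Lpcat3, Mboat7, Lpcat1, Lpgat1 and Mboat1 both knockout libraries lie above both wild type libraries, and for Mboat2 they overlap.

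The summed level of the 8 members overlapped between genotypes. Of the 8 shares in it, those of Lpcat4 and Mboat2 were higher in both knockout libraries, those of Mboat7, Lpcat1 and Lpgat1 were lower in both, and those of Lpcat3, Mboat1 and Lpcat2 overlapped. Relative to the same sum, 21.6% of the 12809 other genes tested were higher in both knockout libraries and 20.1% lower in both. The sum was 131.5 and 142.8 FPKM in the knockout libraries, against 148.1 and 121.5 FPKM in the wild type libraries. Lpcat4 made up 23.3% and 24.0% of it in the knockout libraries, against 15.0% and 14.8% in the wild type libraries. Mboat7 made up 25.5% and 26.2% in the knockout libraries, against 29.8% and 35.8% in the wild type libraries. Lpcat1 made up 8.0% and 9.3% in the knockout libraries, against 11.8% and 10.9% in wild type. The share of Lpcat3, 32.9% and 29.9% in the knockout libraries and 31.1% and 25.5% in the wild type libraries, overlapped. On counts in place of FPKM it did not, at 24.6% and 23.8% in the knockout libraries and 21.8% and 16.6% in the wild type libraries, whereas the Mboat2 share overlapped. Shares add up to the whole, so a higher share of one member lowers the others, and no test was made.

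**Figure D4:**
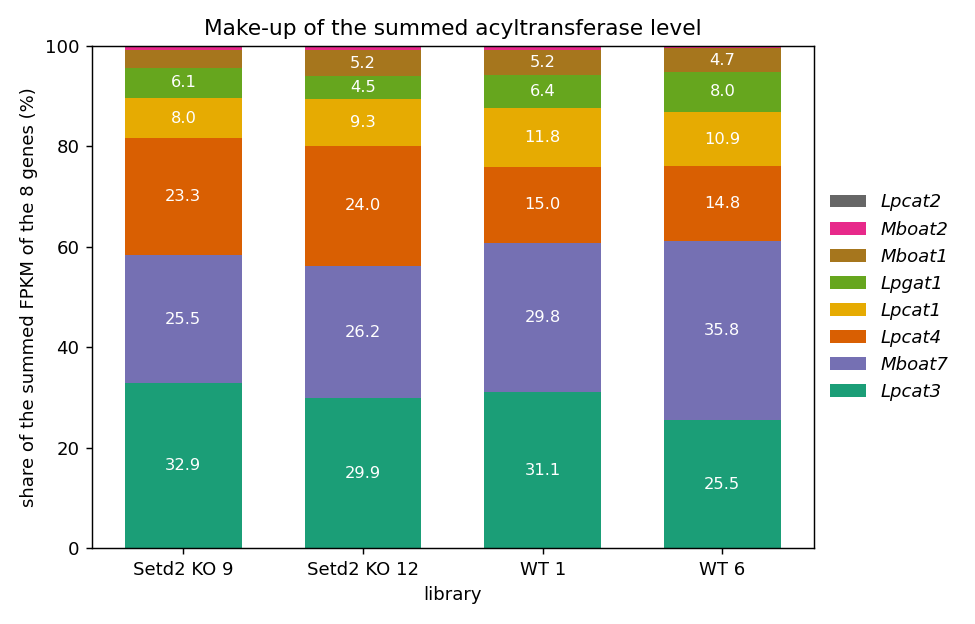
Share of each member in the summed FPKM of the 8 genes (vertical, percent) in each library, knockout left of wild type. The Lpcat4 band takes 23.3% and 24.0% in the knockout libraries and 15.0% and 14.8% in the wild type libraries.

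**Figure D5:**
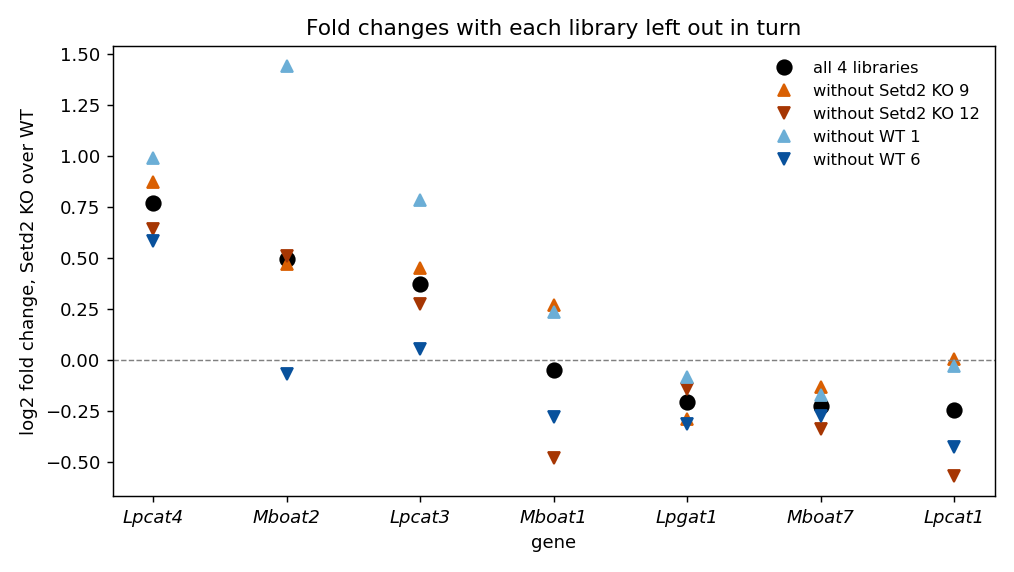
Log2 fold change of each tested gene, knockout over wild type, with all 4 libraries (circles) and with each library left out in turn (triangles). Lpcat4, Lpcat3, Mboat7 and Lpgat1 stay on one side of 0, whereas Mboat2, Mboat1 and Lpcat1 cross it. Lpcat4 runs from 0.59 to 0.99 and Lpcat3 from 0.06 to 0.79. The genotypes do not overlap for Lpcat4, Mboat7 and Lpgat1, so leaving out 1 library could hardly turn their signs.

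The pattern of Lpcat4 over the 4 libraries was shared by many other genes. By root mean square distance of log2 CPM centred on each gene's own mean, the 5 nearest named genes were Rbmx2 (0.0153), Thy1 (0.0193), Rpa2 (0.0264), Pum3 (0.0292) and Cyb561 (0.0295), among 12815 genes compared over 4 libraries. Thy1, a surface glycoprotein of T cells, had 1105 and 1258 CPM in the knockout libraries, against 781.4 and 608.2 CPM in the wild type libraries. It was not among the T cell markers summed above, and it went the other way from their sum. In all, 164 genes lay within a distance of 0.1 of Lpcat4. The nearest other member was Lpcat3, at 0.216.

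The wider acylation machinery held the 1 gene that passed the test. Of 13 tested genes of the AGPAT and GPAT family, which acylate lysophosphatidate and glycerol phosphate, 1 rose and 0 fell in edgeR. That gene was Agpat4, at 55.3 and 61.2 CPM in the knockout libraries, against 4.78 and 4.75 CPM in the wild type libraries (log2 3.61, SE 0.23, adjusted p = 0.00559, edgeR). Without knockout replicate 12 its adjusted p was 0.0737 in edgeR. Per length, Agpat4 stood at 28.9 and 30.5 FPKM in the knockout libraries, close to Lpcat4, and at 2.61 and 2.64 FPKM in the wild type libraries. The next by p were Agpat2 (log2 0.90, SE 0.24), Lclat1, which acylates lysocardiolipin (-0.45, SE 0.23), and Agpat5 (0.39, SE 0.29), none of which passed. Without knockout replicate 12 Agpat5 was 0.05 and Lclat1 was -0.26, and without wild type replicate 1 Agpat5 was 0.69. The family's median was 0.22, with 11 of 13 positive, against 49.8% positive over all genes, whatever their length. The median was 0.08 without knockout replicate 12 and 0.14 without wild type replicate 6, and it was not computed with the length trend removed. With that trend removed Agpat2 was 0.65 and Lclat1 was -0.27, whereas Agpat5 was 0.52.

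Of 5 tested further MBOAT genes, which acylate neutral lipids, sterols or secreted proteins, 0 passed. Dgat1, which makes triacylglycerol, had 130.5 and 121.3 CPM in the knockout libraries, against 64.9 and 96.3 CPM in the wild type libraries (log2 0.64, SE 0.25, adjusted p = 0.413, edgeR). The cholesterol acyltransferase genes Soat1 (log2 0.26) and Soat2 (-0.80, SE 0.64) followed by p. One library set the sign of Soat2, which was 0.17 without wild type replicate 6, and Dgat1 was 0.40 without wild type replicate 1.

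The deacylating step of the cycle showed no gene past the test in either tool. At an unadjusted edgeR p under 0.05 there were 0 of 26 tested genes, where 6.23% of all genes were higher and 5.73% lower. The smallest p belonged to the phosphatidylserine phospholipase gene Pla1a (log2 1.44, SE 0.62), Pla2g2d (-1.87, SE 0.89) and the lysophospholipase gene Lypla2 (0.50, SE 0.24). Pla2g2d was high in a single library, at 0.986 and 0.981 CPM in the knockout libraries, against 0.865 and 6.37 CPM in the wild type libraries. Its log2 fold change was 0.18 without wild type replicate 6. Pla1a was 0.72 without knockout replicate 9, and Lypla2 was 0.26 without knockout replicate 12. The median over this list was 0.06, and with a library left out it ran from -0.03 to 0.12.

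Of 28 tested genes that supply fatty acyl-CoA, 0 passed in edgeR, and 6 were higher and 1 lower at an unadjusted p, where 6.23% and 5.73% of all genes were. The fatty acid transporter gene Cd36 was the 1 called by DESeq2 (adjusted p 0.00178, against 0.261 in edgeR), at 4.76 and 7.59 CPM in the knockout libraries and 0.407 and 1.06 CPM in the wild type libraries. In edgeR it passed with no filter on low counts (adjusted p = 0.0154). Apart from the DESeq2 test, it passed in no other setting that kept all 4 libraries. Their adjusted p ran from 0.249 (limma on log2(FPKM + 0.1)) to 0.357 (edgeR scaled by library size only), with 0.274 once the length trend was removed. The log2 fold change of Cd36 was 3.06. Leaving out 1 library gave 2.54 (wild type replicate 1 omitted) to 3.90 (wild type replicate 6 omitted). The desaturase family gene Fads3 (log2 2.91, SE 0.85) and the acyl-CoA synthetase gene Acsl6 (2.11, SE 0.74) came next, both under 3 CPM in every library. The list had 20 of 28 members above 0, against 49.8% of all genes, whatever their length. Its median was 0.28, or 0.11 without wild type replicate 6, 0.17 without knockout replicate 12 and 0.45 without wild type replicate 1. This median was not computed with the length trend removed.

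Of 11 LXR factors and targets, 2 had log2 fold changes above 0 and the other members below it. Over all genes tested, 49.8% were above 0. The median was -0.52, or -0.14 without wild type replicate 6, and it was not computed with the length trend removed. None passed in edgeR or DESeq2, and 2 were lower at an unadjusted edgeR p, Arl4c and Nrip1, where 5.73% of all genes were. For Arl4c (log2 -0.60) that was lost without wild type replicate 1 (-0.39), without knockout replicate 9 (-0.53) and with the length trend removed (-0.46), and for Nrip1 (-0.98) without knockout replicate 12 (-0.52) and without wild type replicate 6 (-0.74). With the length trend removed Nrip1 was -0.65. The sterol exporter gene Abcg1 had 46.6 and 44.5 CPM in the knockout libraries, against 51.1 and 101.7 CPM in the wild type libraries. Its log2 fold change was -0.75, or -0.44 with the length trend removed. Wild type replicate 6, which lay at an end of the first principal component, was the highest library for Abcg1 and the lowest for Lpcat3. A link between these genes was not tested.

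Among the 8 genes of platelet-activating factor metabolism 0 passed in edgeR. At an unadjusted edgeR p under 0.05 there were 0 as well, where 6.23% of all genes were higher and 5.73% lower. The smallest p was that of Pafah1b3, a catalytic subunit of an acetylhydrolase that inactivates the mediator (log2 0.45, SE 0.24), followed by its receptor gene Ptafr (-1.18, SE 0.72) and Chpt1 (-0.47, SE 0.34). Without wild type replicate 6 Ptafr was -0.23 and Chpt1 was -0.22, without knockout replicate 9 they were -1.77 and -0.73, and Pafah1b3 was 0.14 with the length trend removed. Of 13 genes that make phosphatidylcholine and phosphatidylethanolamine, the diacyl lipids that the cycle remodels, 0 passed in edgeR. The ethanolamine kinase gene Etnk1 was the 1 at an unadjusted edgeR p under 0.05, against the same shares of all genes. It had 163.7 and 139.0 CPM in the knockout libraries, against 242.8 and 242.5 CPM in the wild type libraries (log2 -0.68, SE 0.21, adjusted p = 0.39, edgeR). With the length trend removed it was -0.36 (unadjusted p = 0.0653, edgeR), and without wild type replicate 1 it was -0.67 (unadjusted p = 0.0532, edgeR). Pemt (1.15, SE 0.51) and Pcyt1b (-0.73, SE 0.38) came next by p, and Pemt was 0.73 without knockout replicate 9. DESeq2 called 0 genes in either list.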

How the data were processed

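The labels' protocols name TRIzol for the extraction of total RNA and the Illumina HiSeq platform. Bowtie2, RSEM and the builds GRCm38.p6 and mm10 are named in the submitters' processing notes, without versions. The authors deposited expected counts per gene (estimated by RSEM and not always whole) and an expression value without a stated unit. It was taken as FPKM made by the authors, since implied gene lengths divided by annotated lengths had a median of 0.995 over 449 genes with 1 transcript. Of the gene IDs, 99.3% matched RefSeq.

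Expected counts were rounded, filtered with filterByExpr (minimum count 10, 12816 genes left) and scaled by TMM (factors 0.9491 to 1.056). Genotypes were compared by edgeR 4.0.16's quasi-likelihood test (robust, two-sided, R 4.3.3) with Benjamini-Hochberg adjustment over all genes. Intervals used the total degrees of freedom. Alternatives used DESeq2 1.42.0 and limma 3.58.1, and fits were tested on simulated data. With a library left out, the lone library of its genotype is assumed to vary like the other pair. Libraries differed beyond sampling noise (chi-square per degree of freedom 30.4 to 161.8). The smallest value was that between knockout replicate 9 and wild type replicate 1, below those within each genotype (52.6 in the knockout, 45.5 in wild type). Named genes were the members, from each pathway list called genes and the 3 of smallest p, the 5 genes most like Lpcat4, and the most abundant marker of lists quoted. Emg1 and Tsen34 were added because their exons overlap members. The members and lists were chosen with earlier results of these data known. Intervals cover counting error and the spread of 2 libraries per group only.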

Additional observations from a re-analysis of the deposited data

How the results depend on the processing

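No paired analysis was possible because the genotypes have different replicate numbers (9 and 12 in the knockout, 1 and 6 in wild type). Over 12 alternatives for each tested member, 0 members passed an adjusted p of 0.05. The log2 fold change of Lpcat4 ran from 0.59 to 0.99 (adjusted p 0.162 to 1.0) and kept its sign, as did Lpcat3 (0.06 to 0.79) and Mboat7 (-0.34 to -0.13). Signs turned for Lpcat1 (0.006 without knockout replicate 9), Mboat1 (0.272 without knockout replicate 9, 0.236 without wild type replicate 1), Mboat2 (-0.067 without wild type replicate 6) and Lpgat1 (0.092 with the length trend removed). For Lpcat4 and Mboat7 the genotypes do not overlap, so leaving out 1 library could hardly turn the sign. With a library left out, Lpcat1 ran from -0.565 to 0.006, Mboat1 from -0.478 to 0.272 and Mboat2 from -0.067 to 1.44. The cause was not tested. Over all genes, 1 was called higher and 0 lower. With no filter on low counts these were 48 and 33, with DESeq2 88 and 97, and with a library left out 0 to 113 and 0 to 81, highest without wild type replicate 1. The lowest, 0 and 0, came without knockout replicate 12, with 288 and 324 genes at an unadjusted p under 0.05 in edgeR. With counts in place of FPKM, which leaves length in by construction, the mean share over the 4 libraries was 10.9% for Lpcat1, 21.7% for Lpcat3, 14.4% for Lpcat4, 0.692% for Mboat2 and 14.7% for Lpgat1, against 9.99%, 29.8%, 19.3%, 0.54% and 6.25%. The 7 ratios kept their direction on counts, with 0.364 for Lpcat3 in place of 0.511. Depth limits Lpcat2 and Mboat2.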

Other observations

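The effective length implied by counts and FPKM reflects the mix of transcripts that was estimated for a gene, and it varied between libraries for some members. For Lpgat1 it was 6133 and 6586 bases in the knockout libraries, against 6098 and 5444 bases in the wild type libraries. For Lpcat3 it was 1858 and 2028 bases in the knockout libraries, against 1792 and 1710 bases in the wild type libraries. In both genes the knockout libraries lay above the wild type libraries. The share of all genes whose effective length separates in this way was not counted, and the difference was not tested. For Lpcat4 it was 1902 and 1906 bases in the knockout libraries, against 1901 and 1900 bases in the wild type libraries. On log2(FPKM + 0.1) in limma, which changes the values, the scaling and the test together, the log2 fold change of Lpgat1 was -0.42 and that of Lpcat3 0.19, against -0.21 and 0.37 on counts in edgeR.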
